A study of Mus musculus with 8 samples.

Results

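Sgk1, Fkbp5, Tsc22d3, Cdkn1a, Nfkbia, Mt1 and Mt2 are genes that many tissues switch on under glucocorticoids, metals or other stress, and they were followed here in the visual cortex of mice that had lost 1 eye. All probe sets annotated to a single one of these symbols were taken, which gave 9 probe sets for 7 genes among the 12422 probe sets of the array that are not controls, which carry 8251 single gene symbols. Cdkn1a and Nfkbia had 2 probe sets each. After a filter on low signal, 8 of the 9 probe sets and 6 of the 7 genes remained, and Tsc22d3 was the gene left out. The animals were wild-type C57Bl6 mice, enucleated on one side at postnatal day 20 and killed at postnatal day 24, after 4 days. The 2 groups were non-deprived cortex, ipsilateral to the removed eye, and deprived cortex, contralateral to it, with 4 arrays each, numbered 1 to 4 in both. Both groups came from operated mice, so no value here stands for the cortex of a mouse with 2 eyes, or for one that had no surgery. The design text speaks of pooled samples while the protocol names 4 mice, and it is not clear whether an array holds 1 animal or several. The p-values therefore measure only how far these samples differ among themselves, and that spread may be technical.

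Glucocorticoids enter cells and bind the glucocorticoid receptor, a transcription factor that waits in the cytoplasm in a complex with heat shock protein 90 and co-chaperones and then moves to the nucleus. Among the genes it induces in brain are Sgk1, a protein kinase that regulates ion channels and transporters, Fkbp5, a co-chaperone that lowers the receptor's affinity for hormone, and Tsc22d3, also called GILZ, a leucine zipper protein that restrains inflammatory transcription. Nfkbia encodes an inhibitor that holds NF-kappaB in the cytoplasm, and Cdkn1a encodes p21, an inhibitor of cyclin-dependent kinases and a classical target of p53. Both are also glucocorticoid-inducible in some cells. Mt1 and Mt2 encode metallothioneins, small cysteine-rich proteins that bind zinc and copper, are strongly expressed by astrocytes and are induced by zinc through the factor Mtf1 as well as by glucocorticoids.

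The sequences around the start sites of the members that carry the results below are shown first. RefSeq windows of 300 bases, from 250 before to 50 after an annotated start, were matched for 7 of the 7 genes, with 15 windows in all because Sgk1 has 6 annotated starts, Tsc22d3 3 and Cdkn1a 2. The metallothionein genes are shown because their signals varied together across the arrays. Capitals mark the core of the metal response element, TGCNCNC, searched on both strands, so a match on the minus strand reads in reverse complement.
Mt1 promoter, GRCm38.p6 chr8:94178839-94179138, plus strand: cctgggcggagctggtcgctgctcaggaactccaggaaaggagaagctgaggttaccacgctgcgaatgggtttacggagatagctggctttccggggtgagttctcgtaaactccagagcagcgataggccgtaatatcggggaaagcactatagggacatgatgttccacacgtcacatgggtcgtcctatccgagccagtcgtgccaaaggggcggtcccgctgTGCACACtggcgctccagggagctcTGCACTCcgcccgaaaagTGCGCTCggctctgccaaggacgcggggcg
Mt2 promoter, GRCm38.p6 chr8:94172368-94172667, plus strand: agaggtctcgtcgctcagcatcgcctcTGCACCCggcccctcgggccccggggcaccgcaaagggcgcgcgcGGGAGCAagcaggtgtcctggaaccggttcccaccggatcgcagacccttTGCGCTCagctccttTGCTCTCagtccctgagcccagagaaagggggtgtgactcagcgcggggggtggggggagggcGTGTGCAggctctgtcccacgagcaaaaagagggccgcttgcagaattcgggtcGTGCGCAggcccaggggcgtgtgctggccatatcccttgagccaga
The Mt1 window holds 3 matches and the Mt2 window 6. At least 1 match is found in 51.0% of all 32851 windows, and 5 or more in 0.697% of them. None of the Mt1 and Mt2 matches shares a base with a match to the other motifs searched. The metal core was not particular to the metallothioneins, and lay in 7 of the 15 member windows, from 6 of the 7 genes. A window of 1 Sgk1 start held 3 matches, as many as Mt1. Windows of another Sgk1 start, of Fkbp5, of Nfkbia and of 1 Tsc22d3 start held 1 each. Among the member windows, only that of Mt2 held 5 or more.

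Sgk1 is shown because its signal ran opposite to the metallothioneins. Capitals mark the core of a glucocorticoid response element, ACANNNTGT, which lies in 6.85% of all windows.
Sgk1 promoter, GRCm38.p6 chr10:21993640-21993939, plus strand: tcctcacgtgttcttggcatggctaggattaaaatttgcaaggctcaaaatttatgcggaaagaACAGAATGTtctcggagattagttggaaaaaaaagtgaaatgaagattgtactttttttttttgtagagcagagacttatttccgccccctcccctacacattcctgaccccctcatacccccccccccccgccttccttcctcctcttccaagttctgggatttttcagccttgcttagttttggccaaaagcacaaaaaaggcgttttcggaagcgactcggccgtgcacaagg
Read with its flanks, this match is a full palindrome, with AGA before the core and TCT after it. That longer form, searched after the windows had been read, occurs in 3 of 32851 windows, or 0.00913%, and in 1 of the 15 member windows. The window belongs to 1 of the 6 annotated Sgk1 starts, and the arrays do not tell which start was used. The core also matched once in the Mt1 window and once in a window of another Sgk1 start, and in no window of Fkbp5, Tsc22d3, Cdkn1a or Nfkbia.

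Cdkn1a is shown because it had the largest difference between hemispheres among the members. Capitals mark the paired core of a p53 response element, CATG followed by 6 bases and a second CATG, which was also added after the windows had been read and lies in 0.712% of all windows.
Cdkn1a promoter, GRCm38.p6 chr17:29090729-29091028, plus strand: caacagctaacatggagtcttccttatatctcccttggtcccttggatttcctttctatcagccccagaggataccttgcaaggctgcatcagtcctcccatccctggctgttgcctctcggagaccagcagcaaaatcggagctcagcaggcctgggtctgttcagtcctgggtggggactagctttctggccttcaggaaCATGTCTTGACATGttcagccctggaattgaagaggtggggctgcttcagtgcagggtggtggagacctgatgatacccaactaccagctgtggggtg
This is the upstream one of the 2 annotated Cdkn1a starts. The NF-kappaB motif, GGG followed by 2 bases and TTTCC, present in 1.63% of windows, matched once among the members, in the Nfkbia window, whose product is induced by the factor that it inhibits. A match describes letters in a window and does not show that a protein binds there.

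No member differed between the hemispheres at the threshold. The comparison asks whether the cortex that lost its main eye's input carries more or less message of these stress genes than the other hemisphere. In limma, adjusted over all 7453 probe sets past the filter, the lowest adjusted p among the 8 member probe sets tested was 0.995 without the replicate number in the model and 0.585 with it. No probe set of the whole table was called either, 0.0% in each direction, and 199, or 2.67%, had an unadjusted p under 0.05. Of the 6 member genes past the filter, each by its brightest probe set, 4 lay below 0 and 2 above, with a median log2 difference (deprived minus non-deprived, signal plus pseudocount) of -0.20. Over all 5675 genes 46.1% lay below 0 and the median was 0.02, and over all probe sets 45.1% lay below 0. The groups overlapped for all 9 member probe sets, where 2.04% of all probe sets had groups that did not, 0.805% lower and 1.23% higher in deprived cortex.

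**Figure D1:**
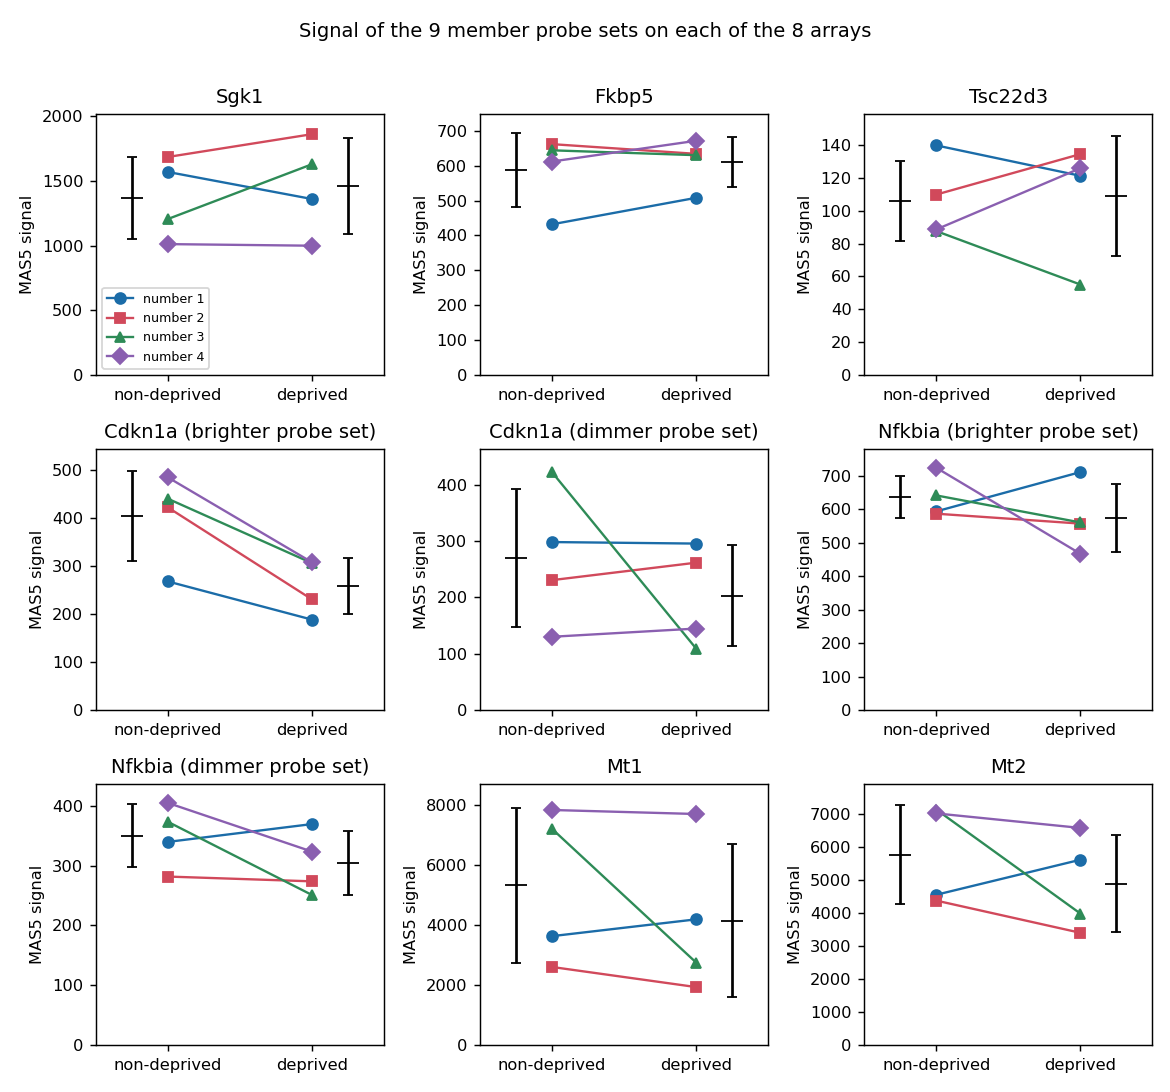
MAS5 signal (linear, arbitrary units) of the 9 member probe sets on the 8 arrays. Lines join arrays of the same number, and black marks give the mean and SD of the 4 arrays of a group. The brighter probe set of Cdkn1a was lower in deprived cortex in 4 of 4 numbers, and Mt1 spread from 1924 to 7818.

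Sgk1 did not pass the test, and its group means lay close together. Its signal was 1569, 1685, 1206 and 1012 in non-deprived samples 1 to 4, and 1360, 1861, 1629 and 999.6 in the deprived samples of the same numbers. The samples numbered 4 were lowest and those numbered 2 highest in both groups. The means were 1368 ± 313 and 1462 ± 370 (SD, n = 4), and the log2 difference was 0.09 ± 0.21 (SE), higher in 2 of 4 pairs. Its unadjusted p in limma was 0.69 and its adjusted p 0.995. The number means of Sgk1 covered 0.81 log2 units, 1.75-fold from number 4 to number 2, and 16.5% of the 7453 probe sets had a range as wide. The 2 hemispheres of a number differed by 0.20 on average, a measure unlike a range over 4 means. The sign of the small difference turned with 1 library, to -0.05 when non-deprived replicate 4 was left out and to -0.04 when deprived replicate 2 was.

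Fkbp5 did not pass the test either, and its lowest values were those of the arrays numbered 1. Signals were 432.0, 661.5, 643.8 and 611.8 in non-deprived and 507.9, 633.7, 629.9 and 671.2 in deprived cortex. The number 1 array was the lowest of its group in both hemispheres, and the other 6 arrays lay within 611.8 to 671.2. The log2 difference was 0.07 ± 0.17 (SE), higher in 2 of 4 pairs, with an adjusted p of 0.995 in limma, and it was -0.07 without non-deprived replicate 1. The gene with the pattern most like Fkbp5, out of the 6751 named probe sets past the filter, was Xist, the RNA that coats the inactive X chromosome (r = 0.978 over 8 arrays). Xist had a signal of 3.8 and 59.0 on the arrays numbered 1 and 334.1 to 838.0 on the other 6. Without the arrays numbered 1, r was 0.49, so this likeness rests on those arrays. The labels do not give the animals' sex. Next in likeness were Ube2o (r = 0.973) and Prdx2 (r = 0.959), with 0.79 and -0.21 without the arrays numbered 1.

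Tsc22d3 lay just under the filter on low signal. It had 139.7, 109.8, 87.6 and 88.6 in non-deprived and 121.2, 134.4, 55.1 and 125.8 in deprived cortex, around the filter at a signal of about 110. Deprived sample 3 was the lowest of all 8. In the fit with no filter the log2 difference was -0.01 ± 0.31 (SE), with 2 pairs lower and 2 higher and a limma adjusted p of 0.998.

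Cdkn1a gave the clearest difference of the 7 genes, on 1 of its 2 probe sets. The brighter probe set had signals of 267.9, 422.1, 440.2 and 484.7 in non-deprived and 188.3, 230.4, 306.0 and 307.7 in deprived cortex. The deprived sample was the lower one in every pair, but deprived samples 3 and 4 lay above non-deprived sample 1, so the groups overlap. The means were 404 ± 94.3 and 258 ± 58.9 (SD, n = 4). The log2 difference was -0.61 ± 0.22 (SE), a fold of 0.655 on that scale, and pair differences ran from -0.83 to -0.48. In limma its unadjusted p was 0.0186 and its adjusted p 0.995. With the replicate number as a block they were 0.0021 and 0.585. An unadjusted p under 0.05 with a lower value was found for 1.22% of probe sets without the block and 3.65% with it, where 3.38% had such a p with a higher value and 7.03% in either direction. Of all probe sets, 6.92% were lower in 4 of 4 pairs and 8.95% higher. Its value stayed between -0.79 and -0.48 when single arrays or pairs were left out.

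The dimmer Cdkn1a probe set did not follow the brighter one. It had 298.3, 230.7, 422.2 and 130.1 in non-deprived and 295.6, 261.7, 108.9 and 144.7 in deprived cortex. Its log2 difference of -0.38 ± 0.36 (SE), with a limma adjusted p of 0.995, came from pair 3 at -1.82, and the other 3 pairs lay between -0.01 and 0.17. Without pair 3 it was 0.10 with the replicate block. Over the 8 arrays the 2 probe sets correlated at r = -0.19 (rho = -0.24, exact permutation p = 0.637 and 0.582, adjusted over the 2 genes with 2 probe sets 0.637 and 0.582), and r was 0.26 without the 2 arrays farthest from the median. They therefore give no common value for Cdkn1a.

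The genes whose pattern over the 8 arrays was most like the brighter Cdkn1a probe set were Nptx2, a secreted pentraxin that neurons induce with activity (r = 0.942), Tsnax, a partner of the RNA-binding protein translin (r = 0.937), and Slc31a1, the main copper importer (r = 0.899). As deviations from the group means, which take out the hemisphere difference, these were 0.88, 0.87 and 0.78. In all, 2 of 7452 other probe sets, or 0.0268%, reached r = 0.9 with it. The brighter probe set also ran against the 3' to 5' signal ratio of the actin control, a measure of RNA integrity, at r = -0.76 (rho = -0.79, exact permutation p = 0.0337 and 0.0279, adjusted over 9 member probe sets 0.0758 and 0.0662). It was -0.67 without the 2 arrays farthest from the median ratio, and the log2 difference of the probe set was -0.36 with that ratio as a covariate.

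**Figure D2:**
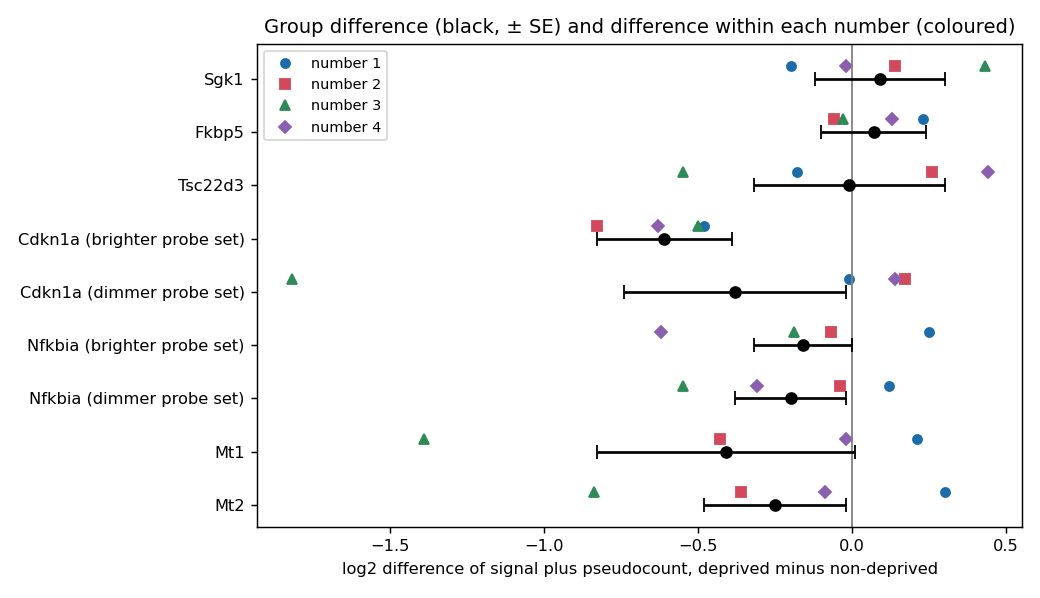
Log2 difference of signal plus pseudocount, deprived minus non-deprived, for the 9 member probe sets. Black points with bars give the fitted difference ± SE and coloured points the difference within each number. The 4 pairs of the brighter Cdkn1a probe set lie from -0.83 to -0.48, whereas 1 pair, number 3, sets the lowest value of Mt1 (-1.39), Mt2 (-0.84) and the dimmer Cdkn1a probe set (-1.82).

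Nfkbia, the inhibitor of NF-kappaB, was slightly lower in deprived cortex on both of its probe sets, within the spread. The brighter one had 593.4, 586.5, 641.1 and 723.7 in non-deprived and 710.8, 556.9, 560.4 and 466.8 in deprived cortex, lower in 3 of 4 pairs and higher in pair 1. Its log2 difference was -0.16 ± 0.16 (SE), with a limma adjusted p of 0.995. It was -0.06 without deprived replicate 4, and pair 4 alone was at -0.62. The dimmer probe set ran from 281.5 to 404.6 in non-deprived and from 250.6 to 369.3 in deprived cortex and had -0.20 ± 0.18 (SE) and the same 3 of 4 pairs lower. It was -0.11 without deprived replicate 3, -0.08 in the blocked fit without pair 3 and -0.05 with the actin control ratio as a covariate. The brighter probe set was at -0.00 in the blocked fit without pair 4. The 2 probe sets correlated at r = 0.63 (rho = 0.81, exact permutation p = 0.0957 and 0.0218, adjusted over 2 genes 0.191 and 0.0436), or 0.85 without the 2 arrays farthest from the median. The genes most like the brighter probe set were Coil, the scaffold of Cajal bodies (r = 0.921), Ring1, a Polycomb subunit (r = 0.893), and Agap3 (r = 0.874). They too were picked as the highest of 6751 named probe sets, and chance in that choice was not tested.

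The metallothioneins were bright and their signals spread over the arrays, Mt1 more than Mt2. Mt1 had 3620, 2593, 7187 and 7818 in non-deprived and 4179, 1924, 2738 and 7684 in deprived cortex. Both arrays numbered 4 and non-deprived sample 3 were high, and the other 5 lay at 1924 to 4179. Mt2 followed the same course, with 4560, 4383, 7148 and 7031 in non-deprived and 5624, 3405, 3989 and 6590 in deprived cortex. The highest array stood 4.06-fold above the lowest for Mt1 and 2.10-fold for Mt2.

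Between the groups, Mt1 had means of 5305 ± 2585 and 4132 ± 2545 (SD, n = 4) and a log2 difference of -0.41 ± 0.42 (SE). Mt2 had 5780 ± 1514 and 4902 ± 1465 and a difference of -0.25 ± 0.23 (SE). Both were lower in 3 of 4 pairs and higher in pair 1, and both had a limma adjusted p of 0.995, or 0.705 and 0.712 with the block. Pair 3 carried most of it, at -1.39 for Mt1 and -0.84 for Mt2. Without that pair the blocked differences were -0.08 and -0.05. In the fit with no block, the values were -0.77 and -0.41 without deprived replicate 4, and -0.11 and -0.09 without deprived replicate 2.

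The means of the 4 numbers covered 1.79 log2 units for Mt1, 3.45-fold from number 2 to number 4, and 0.59% of the 7453 probe sets had a range as wide. For Mt2 the range was 0.81, which 16.1% of probe sets reached. An F-test of the replicate number in the blocked limma fit, added after these values had been seen, gave Mt1 an unadjusted p of 0.00156 and an adjusted p of 0.0707. Sgk1 had 0.00706 and 0.103, Mt2 0.0349 and 0.178, and the brighter Cdkn1a probe set 0.0211 and 0.145. No member passed. Of all probe sets, 1.26% passed the adjusted threshold for the number and 24.7% had an unadjusted p under 0.05. What a number marks, an animal, a pool or a day, is not in the labels.

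Mt1, Mt2 and Sgk1 formed the one group of members whose signals moved together over the 8 arrays. Correlations were computed for all 21 pairs of the 7 genes, with log2 values and p-values from exact permutation of the pairings, and arrays of the same number are not independent of each other. Mt1 and Mt2 correlated at r = 0.98 (rho = 0.90, exact permutation p = 2.48e-04, adjusted 0.0026 for r and 0.0479 for rho). Sgk1 ran the other way, with r = -0.97 against Mt1 (rho = -0.98, adjusted exact permutation p = 0.00104 for r and 0.00833 for rho). Against Mt2 it had r = -0.94 (rho = -0.88, adjusted exact permutation p = 0.0102 for r and 0.0507 for rho). Without the 2 arrays farthest from the median these were 0.96, -0.98 and -0.98. The arrays fall into 3 of high and 5 of lower Mt1, and within those 5 arrays, as a description, r was 0.94 between Mt1 and Mt2, and -0.96 between Sgk1 and either. The other 18 pairs had adjusted exact permutation p-values of 0.778 or more for r and 0.513 or more for rho, the highest r among them being 0.50 between Fkbp5 and Cdkn1a. As deviations from the group means that pair had r = 0.89 (exact permutation p = 0.0107, adjusted 0.056), and without the arrays numbered 1 the r of the log2 values was -0.15. For the brighter Nfkbia probe set r was -0.12 with Sgk1, 0.18 with Mt1 and 0.31 with Mt2. Without the arrays numbered 4 these were -0.79, 0.69 and 0.78, so its place outside the group rests on those arrays.

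**Figure D3:**
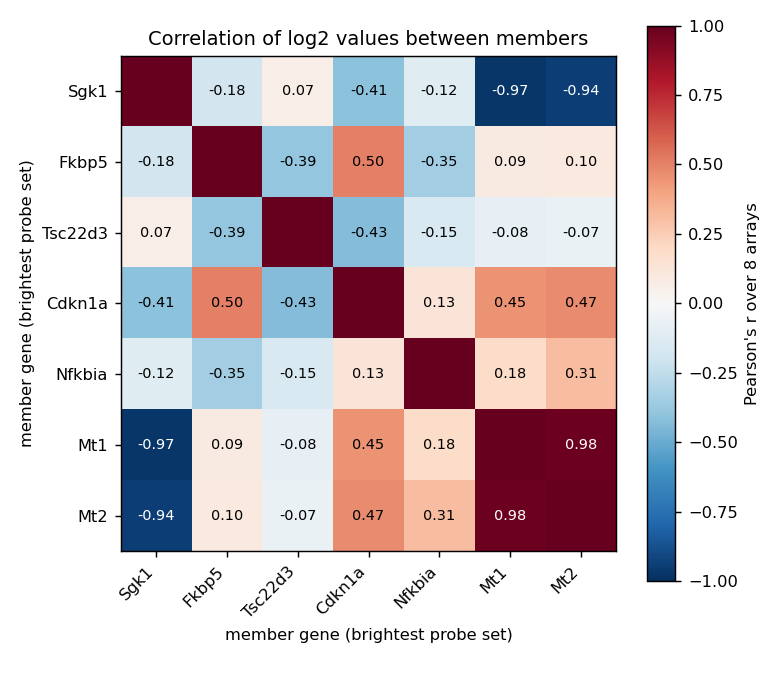
Pearson's r of log2 values over the 8 arrays between the 7 member genes, each by its brightest probe set. Mt1 and Mt2 stand at 0.98, both lie at -0.97 and -0.94 against Sgk1, and the other pairs range from -0.43 to 0.50.

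This pattern was shared with many genes outside the group. Of 7452 other probe sets, 220 (2.95%) reached r = 0.9 with Mt1 and 158 (2.12%) reached -0.9. Mt2 was the 19th of 6750 named probe sets in likeness to Mt1, and Sgk1 was the 20th from the negative end. The genes most like Mt1 were Rps18, a protein of the small ribosomal subunit (r = 0.991), Elob, an elongin subunit (r = 0.99), and Uqcrq, a subunit of respiratory complex III (r = 0.989). For Mt2 they were Rps18 (r = 0.99), Sdhb, a subunit of complex II (r = 0.988), and Mea1 (r = 0.982). For Sgk1 they were Mtmr7, a phosphoinositide phosphatase, Atp11a, a phospholipid flippase, and Ogt, the enzyme that adds O-linked N-acetylglucosamine, each at r = 0.984.

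The actin control ratio moved with the same group. It was 1.248 on non-deprived sample 3, the lowest of the 8 arrays, and 1.908 on deprived sample 2, the highest, and these are a high and the lowest array of Mt1. Over the 8 arrays the ratio correlated at r = -0.87 with Mt1 (rho = -0.79, exact permutation p = 0.00878 and 0.0279, adjusted over 9 probe sets 0.0395 and 0.0662). For Mt2 r was -0.90 (rho = -0.93, adjusted exact permutation p = 0.0382 and 0.0201), and for Sgk1 0.83 (rho = 0.76, adjusted exact permutation p = 0.0501 and 0.0662). Without the 2 arrays farthest from the median ratio these were -0.76, -0.80 and 0.78, and within the 5 arrays of lower Mt1, as a description, -0.48, -0.63 and 0.44. With the ratio as a covariate the group differences turned, to 0.43 for Mt1, 0.18 for Mt2 and -0.29 for Sgk1, each with a limma adjusted p of 0.999. The group means of the ratio were 1.39 ± 0.178 (non-deprived) and 1.64 ± 0.239 (deprived; SD, n = 4), with p = 0.171 by an exact permutation test. The dim end of the signals also differed, with a 10th percentile of 13.5 ± 0.718 (non-deprived) and 17.2 ± 2.68 (deprived; SD, n = 4) and p = 0.0286 by the same exact test, and its part in the members' values was not tested. For the Gapdh ratio, r with the 9 probe sets ran from -0.18 to 0.54 with exact permutation p-values of 0.168 or more. Without the 2 arrays farthest from the median Gapdh ratio, r was -0.75 for Sgk1, 0.74 for Mt1 and 0.64 for Mt2.

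**Figure D4:**
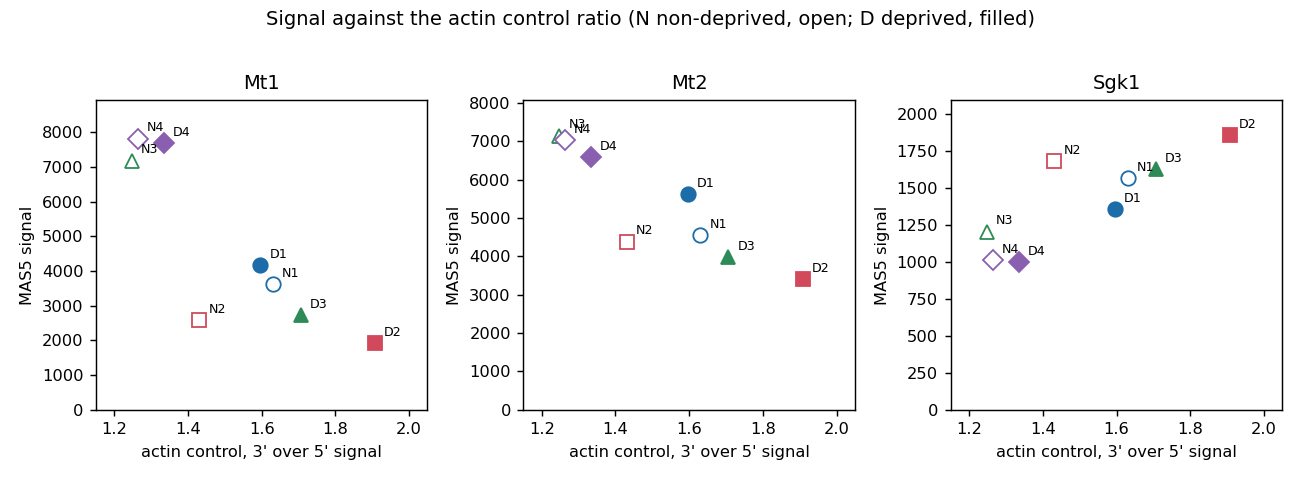
MAS5 signal (linear, arbitrary units) of Mt1, Mt2 and Sgk1 against the 3' to 5' signal ratio of the actin control on each array. Open marks are non-deprived and filled marks deprived, labelled by group and number. The 3 arrays of highest Mt1 (N3, N4 and D4) have the lowest ratios, and Sgk1 is lowest on them.

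No gene of the receptor and its helpers was called. Of 23 listed genes for the glucocorticoid and mineralocorticoid receptors, their chaperones and coactivators, 16 passed the filter, 7 below 0 and 9 above, with a median of 0.04 and 0 called. For Nr3c1, the glucocorticoid receptor, mean signals were 144 ± 78.8 (non-deprived) and 159 ± 52.7 (deprived; SD, n = 4), a log2 difference of 0.19 ± 0.33 (SE). Fkbp4, the co-chaperone that acts opposite to Fkbp5, stood at 0.02, and Hsp90aa1, the chaperone itself, at 0.05. Stip1, a co-chaperone linking heat shock proteins 70 and 90, had -0.27, Hsd11b1, which regenerates active glucocorticoid, -0.26, and Bag1, a chaperone regulator, -0.23. Hsd11b1 and Bag1 were lower in 4 of 4 pairs and Stip1 in 3, each with a limma adjusted p of 0.995. Nr3c2, Hsp90ab1, Trp53, Nfkb1 and Sgk3 had no probe set of a single symbol and were not analysed here.

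Of the other genes that glucocorticoids induce, more lay below 0 than above. Of 44 listed, 29 passed the filter, with 20 below 0, 9 above, a median of -0.05 and 0 called in either direction. Over all 5675 genes 46.1% lay below 0 and the median was 0.02. Whether the list as a set differs from all genes was not tested. At an unadjusted p under 0.05, 4 of the 29 were lower and 0 higher (background 1.22% lower, 1.45% higher). They were Dusp1, a MAP kinase phosphatase, at -0.50 and Tiparp, of the poly-ADP-ribose polymerase family, at -0.76. The others were Rgs2, a regulator of G-protein signalling, at -0.45 and Gadd45g, a stress sensor, at -0.39. Gadd45g was named after its value was seen. With the replicate block 5 were lower and 1 higher (background 3.65% lower, 3.38% higher), which added Zfp36, an RNA-binding protein that shortens the life of cytokine messages, at -0.78 and Glul, glutamine synthetase, at 0.56, both also named after their values were seen. Both depend on the block, as their unadjusted limma p without it was 0.063 for Zfp36 and 0.322 for Glul. Dusp1, Rgs2, Tiparp and Gadd45g are also induced by neuronal activity. Per1, a clock gene with a glucocorticoid response element, had 968 ± 149 and 796 ± 126 (SD, n = 4), a difference of -0.28 ± 0.16 (SE) with a limma adjusted p of 0.995. Klf9, a zinc-finger factor used as a marker of receptor activity, stood at -0.06 (-0.29 on its other probe set), and Tsc22d1, a relative of Tsc22d3, at -0.02. The SGK and AKT kinases and their targets, 14 of 22 past the filter, had a median of 0.04 and 0 called. Nedd4, a ubiquitin ligase, had 0.23, Foxo3, a factor that these kinases keep out of the nucleus, 0.23, and Tsc2, an AKT target that restrains mTOR, 0.17 (-0.06 on another probe set past the filter).

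Metal and oxidative stress genes lay around 0. Of 44 listed, 30 passed the filter, 17 below 0 and 13 above, with a median of -0.02 and 0 called. Mt3, the metallothionein of neurons and astrocytes, had 11178 ± 2196 and 10809 ± 907 (SD, n = 4) and a log2 difference of -0.03 ± 0.16 (SE). Mtf1, the zinc-sensing factor, stood at -0.04, and Slc30a1, a zinc exporter that Mtf1 induces, was below the filter with 0.28. Gss, glutathione synthetase, had -0.54 on its brighter and 0.09 on its other probe set, and the superoxide dismutases Sod1 and Sod2 had -0.33 and -0.32. With the replicate block 2 of the 30, Gss and Sod1, had an unadjusted p under 0.05, both lower, at a background of 3.65%.

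Around Cdkn1a, the p53 targets and kinase inhibitors had a median of 0.13, with 6 of 21 below 0, 15 above and 0 called. Over all genes 46.1% lay below 0. At an unadjusted limma p under 0.05, 1 of the 21 was lower and 0 higher (background 1.22% lower, 1.45% higher). With the replicate block 2 were lower and 1 higher (background 3.65% lower, 3.38% higher). Mdm2, the p53 ubiquitin ligase, stood at -0.06 and Ccng1, a p53-induced cyclin, at 0.23. Btg2, an antiproliferative gene that p53 and neuronal activity induce, had -0.48 and was lower in 4 of 4 pairs. Rrm2b, a p53-induced ribonucleotide reductase subunit, had 0.43 and was higher in 4 of 4 pairs, and Pcna, a replication clamp to which p21 binds, had -0.29. Cdkn1b, which encodes the related inhibitor p27, was below the filter with 0.65. Around Nfkbia, 13 of 32 NF-kappaB pathway genes passed the filter, with a median of 0.04 and 0 called. At an unadjusted limma p under 0.05, 0 were lower and 1, Traf6, was higher, with or without the block, at the same backgrounds. Rela, the p65 subunit, had -0.11, Nfkbib, a sister inhibitor, 0.04, and Vcam1, an adhesion molecule, -0.30 (-0.06 on another probe set past the filter). Traf6, an adaptor upstream of the pathway, had 0.58 on 1 probe set and -0.16 on another past the filter.

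**Figure D5:**
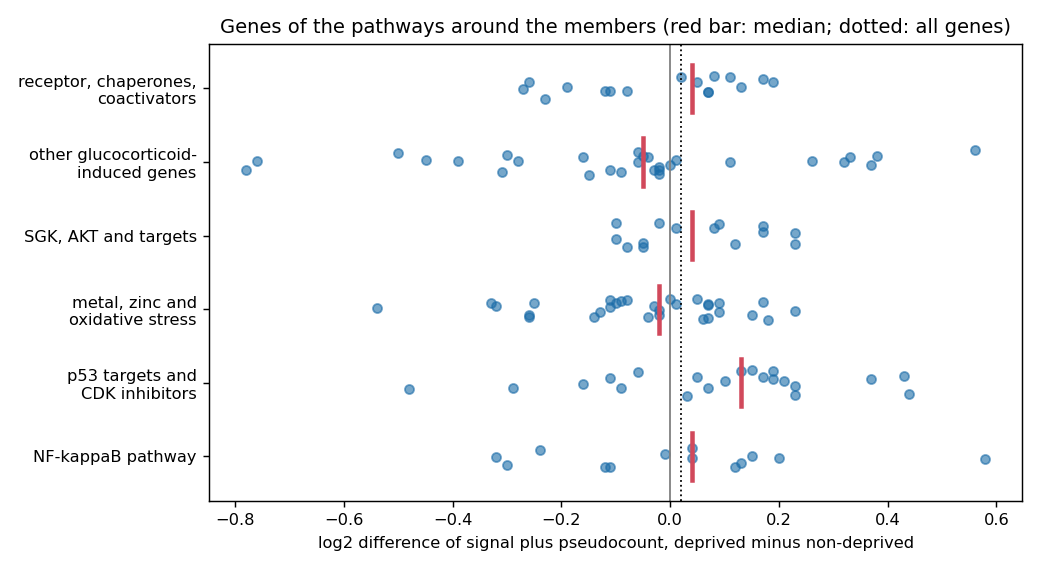
Log2 difference of signal plus pseudocount, deprived minus non-deprived, of each gene past the filter in 6 lists around the members, by its brightest probe set. Red bars are list medians, from -0.05 to 0.13, and the dotted line is the median of all genes at 0.02.

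Markers of cortical excitatory neurons passed the filter, and so did 5 of the 6 thalamus markers measured. Of 10 listed markers of excitatory neurons 8 were on the array and all 8 passed the filter. Their sums were 36988 to 41375 in non-deprived and 36089 to 39919 in deprived cortex, lower in 3 of 4 pairs (exact permutation p = 0.371). Choroid plexus markers were dim, with 0 of 4 past the filter and summed signals of 123 to 218 in non-deprived and 163 to 248 in deprived cortex. Astrocyte markers, relevant to Mt1 and Mt2, had 9 of 11 measured, summed signals of 31486 to 44607 and 35241 to 39551, and an exact permutation p of 1.0. Endothelial, mural and meningeal markers, 15 of 16 measured, summed to 6275 to 7717 in non-deprived and 6457 to 8371 in deprived cortex. Their sum was higher in 4 of 4 pairs (exact permutation p = 0.2), and by gene 4 lay below 0 and 11 above. Interneuron markers, 8 of 8, summed to 16809 to 20227 and 15299 to 19264. Their sum was lower in 4 of 4 pairs (exact permutation p = 0.114), but by gene 5 lay below 0 and 3 above, with a median of -0.05. The sums of microglia (9 of 10 measured, 6633 to 7501 and 6132 to 7330), oligodendrocyte (7 of 10, 17740 to 24503 and 20607 to 21386) and blood markers (6 of 10, 8036 to 14803 and 8194 to 13520) overlapped between the groups. Thalamus markers, 6 of 8, summed to 2260 to 2611 in non-deprived and 2359 to 2898 in deprived cortex. Their sum was higher in 4 of 4 pairs (exact permutation p = 0.171), and by gene past the filter 1 lay below 0 and 4 above. No marker was listed at 0 on every array, and the part of these markers in the members' values was not tested. In bulk tissue, fewer cells of a type and less RNA per cell cannot be told apart.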

How the data were processed

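Visual cortex RNA of 8 samples was hybridised to 1-colour short-oligonucleotide arrays after labelling with biotin. The authors deposited linear signal intensities, 1 value per probe set and array, which the submitters' processing notes credit to MAS5, in 1 table of 12488 probe sets with 0 sample columns left unused. Its version and settings were not stated there, and the number of arrays limits the precision. Arrays had median signals of 183 to 209, and any 2 of them correlated at 0.948 to 0.975 on the log2 scale.

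Arrays were rescaled to one 2% trimmed mean, the 66 control probe sets were set aside, and log2(signal + 15.3) was used, 15.3 being the 10th percentile of signal. This understates changes of dim genes. The filter kept probe sets with a mean above the 40th percentile, 7453 of 12422. Symbols came from probe sets with 1 gene (10833, against 396 with several and 1193 with none), and 10817 were updated through Entrez identifiers to GRCm38.p6, used for names and promoter windows only.

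limma 3.58.1 in R 4.3.3 (lmFit, eBayes with trend, two-sided, Benjamini-Hochberg over all probe sets, threshold 0.05) compared the groups. Standard errors are limma's. The fit was also run on simulated data in which genes varied independently of each other. Many probe sets moved together on these arrays, so its error rates here were not tested. Exact permutation tests were two-sided, and over 70 assignments the smallest possible p is 0.0286. Python 3.11.15, scipy 1.17.1 and matplotlib 3.10.9 were used.

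Same-numbered samples correlated at 0.158 to 0.422 in their deviations from the group means, against -0.272 to 0.123 for different numbers. All 4 exceed 0.1, so blocked values are printed beside a result where they bear on it. The labels do not say what a number marks.

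The members, lists, tests and motifs were chosen with earlier results of these data known. Named genes were all members, a fixed set of receptors, helpers and regulators, the 3 genes of smallest p in each list, and the 3 genes most correlated with each member. A gene is represented by its brightest probe set. Alternatives changed the pseudocount, filter, scaling, block, covariate, weights, trend and arrays.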

Additional observations from a re-analysis of the deposited data

Results flagged for a closer look

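In 2 of the 44 groups of 4 arrays examined, 1 array stood far from the other 3, where chance gives 2.2 at about 1 in 20 groups. For Tsc22d3 in deprived cortex the gap of sample 3 to its nearest neighbour was 0.878 of the group's range, and this probe set lies below the filter. For the summed thalamus markers in non-deprived cortex the gap of sample 3 was 0.921 of the range, a high value. Neither result carries a comparison above.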

How the results depend on the processing

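Of 193 alternative values of the 9 member differences, 185 kept their direction and 8 reversed. In this balanced design, changing only the filter, the block or the trend cannot move a difference, so those values kept their direction by construction. The lowest limma adjusted p of any member was 0.419, for the brighter Cdkn1a probe set with the replicate block as a random effect. With the actin ratio as a covariate Sgk1 turned to -0.29, Mt1 to 0.43 and Mt2 to 0.18, and the median of the other glucocorticoid-induced genes was -0.16 and that of the p53 list 0.05. With array weights Sgk1 was at 0.23, Mt1 at -0.71 and Mt2 at -0.39. The NF-kappaB list median was 0.12 with no filter and -0.02 with quantile or cyclic loess scaling. When single arrays or pairs were left out, differences ran from -0.05 to 0.26 for Sgk1, -0.07 to 0.15 for Fkbp5 and -0.67 to 0.10 for the dimmer Cdkn1a probe set, and list medians from -0.09 to 0.05 for receptor and helpers, -0.10 to 0.00 for other glucocorticoid-induced genes, -0.03 to 0.09 for SGK and AKT, -0.07 to -0.01 for metal and oxidative stress, 0.06 (without pair 3) to 0.18 for p53 targets and -0.05 to 0.08 for NF-kappaB. Probe sets at an unadjusted p under 0.05 numbered 199, against 491 with no filter, 332 with the filter at the 20th percentile, 368 with array weights, 524 with the replicate block and 535 with it as a random effect, and 133 to 592 over the leave-one-out fits. The replicate block changed no call of a member. Calls past the adjusted threshold were 0 to 1 higher over the leave-one-out fits, the 1 being Tmem129 without pair 4 in the blocked fit, and 0 lower. The cause of these shifts was not tested. The 3 correlations called among members kept direction and call as deviations from the group means and after quantile scaling. Depth is unknown for array signal, and Tsc22d3, below the filter, was fitted with no filter and with the filter at the 20th percentile (-0.01 in both).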
